A study of Mus musculus with 3 samples.

Results

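The 9 genes described here encode transporters that carry amino acids and taurine across the cell surface: Slc6a6, Slc7a1, Slc7a5, Slc3a2, Slc7a7, Slc38a2, Slc38a3, Slc38a5 and Slc1a5. They were chosen for their function and not by a threshold on their values, and rows were matched by gene symbol. Slc6a6 was already known to be high in these data, so that its place is given as a description. Of the 9, 8 had a row among the 17583 genes of the table and all 8 passed the minimum mean of 200 used for statements on spread. Slc38a5 had no row, and no value is given for it. Every listed gene reached at least 4 normalized counts in at least 1 mouse.

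RNA bound to tagged ribosomes was immunoprecipitated from hearts of 3 EC-RiboTag mice and sequenced, with 1 library per mouse. These mice carried the genotype Cdh5-CreERT2;Rpl22tm1.1Psam, in which a tamoxifen-inducible Cre under the Cdh5 promoter, active in vascular endothelium, switches on an HA tag on the ribosomal protein Rpl22. The labels place the hearts 7 days after coronary ligation, whereas the RiboTag methods of the study mention no ligation, and the titles contain the letters Rz. The supplement of the study abbreviates the remote zone of infarcted EC-RiboTag hearts as RZ, for another measurement, and whether whole hearts or 1 zone gave these libraries is not stated. No sex or age is given for the single mice, and the 3 libraries form 1 condition with no input or control library in the table. The values therefore describe levels in ribosome-bound RNA and their spread between mice, and no comparison between conditions was possible. In such bulk material, fewer cells of a type and less RNA per cell cannot be told apart.

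The deposited values are read counts normalized between libraries and rounded to whole numbers, here called normalized counts. The sums over all genes were between 7149102 and 7268785, and the estimated depth was about 6755000 to 7565000 reads per library. Mouse 1 stood apart in sex-linked genes, with 4 normalized counts of Xist against 618 in mouse 2 and 869 in mouse 3, and 1080 of Ddx3y against 3 and 1. By these 2 genes mouse 1 was male and mice 2 and 3 were female, although the labels give no sex. Endothelial markers were abundant, with 2808, 2860 and 2930 normalized counts of Cdh5 in mice 1 to 3 and a median of 611 normalized counts per kilobase for the 8 markers. Cardiomyocyte markers were also abundant, with 3428, 3701 and 3643 normalized counts of Myh6 and a median of 555 per kilobase for 9 markers. Medians were lower for 7 fibroblast markers, at 103 per kilobase, for 7 mural cell markers, at 46.0, and for the 7 leukocyte markers with a row, at 28.5. The level of a transporter in these libraries is thus a level in immunoprecipitated heart RNA that held transcripts of several cell types, and the part of each cell type in it was not tested.

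Cells take up amino acids through carriers with distinct coupling. Slc6a6 moves taurine inward together with sodium and chloride, and taurine is an abundant free amino acid of heart muscle and an organic osmolyte. Slc3a2 is a single-pass glycoprotein, also called CD98 or 4F2hc, which brings light chains such as Slc7a5 and Slc7a7 to the plasma membrane. Slc7a5, also called LAT1, exchanges large neutral amino acids, including leucine, for intracellular ones such as glutamine, and Slc7a7, also called y+LAT1, exchanges cationic for neutral amino acids with sodium. Slc7a1, also called CAT1, needs no such heavy chain and carries arginine, lysine and ornithine. Slc38a2, Slc38a3 and Slc38a5 are sodium-coupled neutral amino acid transporters, and Slc1a5, also called ASCT2, is a sodium-dependent exchanger of neutral amino acids such as glutamine.

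The taurine transporter Slc6a6 had by far the most reads of the 8 genes. It lies at chr6:91661034-91736047 on the forward strand of GRCm39, and it reached 3334, 3231 and 3213 normalized counts in mice 1, 2 and 3. The mean was 3259 ± 65.3 (SD, n = 3), which placed it at rank 32 of all genes by mean and first of the 262 genes whose symbol starts with Slc. Slc6a6 held 44.1% of the summed normalized counts of the 8 transporters and had 2.61 times the mean of the next one, Slc38a2. All 3 mice were close to each other, and the coefficient of variation, which is the SD as a percent of the mean, was 2.00%.

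Since long transcripts collect more reads, levels of different genes were compared per kilobase of the canonical transcript. By this measure Slc6a6, with a transcript of 6186 bases, had 527 ± 10.6 normalized counts per kilobase (SD, n = 3). Its rank was then 460, within the first 2.63% of genes with a known length, and 3 among the solute carrier symbols. The pair above it was named after the values were seen: Slc9a3r2, a scaffold protein and not a carrier, at 843, and the nucleobase transporter Slc43a3, at 584. For comparison, Cdh5 had 713 ± 15.2 and the VEGF receptor gene Kdr 554 ± 13.5 normalized counts per kilobase. Duplicates of single-end reads were removed, and at 0.527 normalized counts per base the value of Slc6a6 can be compressed. The same holds for these endothelial genes, so that distances between such abundant genes are uncertain.

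The heavy chain Slc3a2 was the next transporter per kilobase. It lies at chr19:8684246-8700733 on the reverse strand, with 802, 744 and 740 normalized counts in mice 1 to 3. Its mean of 762.0 ± 34.7 (SD, n = 3) came from a short transcript of 2555 bases, and its level per kilobase was 298 ± 13.6. The mice differed little, with a coefficient of variation of 4.55%. Of the 2484 windows of read length along its transcript, 104 (4.19%) had an exact copy elsewhere in the genome, where reads that map to several places were removed; none of the other members had such a window. Also, 15.9% of its exonic bases lie opposite exons of another gene, which stranded counting keeps apart.

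Its light chains were lower. Slc7a7, at chr14:54606899-54655237 on the reverse strand, had 288, 261 and 304 normalized counts in mice 1 to 3, a mean of 284.3 ± 21.7, and 138 ± 10.5 per kilobase. Slc7a5, at chr8:122607889-122634433 on the reverse strand, had 207, 437 and 428 normalized counts, a mean of 357.3 ± 130.3, and 102 ± 37.0 per kilobase. Slc7a7 was thus alike in the 3 mice, whereas Slc7a5 was low in mouse 1 and nearly equal in mice 2 and 3. Per kilobase, Slc7a7 amounted to 44.4%, 43.4% and 50.8% of Slc3a2 in mice 1, 2 and 3, and Slc7a5 to 18.8%, 42.7% and 42.0%. On the log2 scale per kilobase, Slc3a2 exceeded Slc7a7 by 1.12 ± 0.12 (SD of the 3 within-mouse ratios), which is 2.17-fold, and Slc7a5 by 1.63 ± 0.68. These values and the percentages depend on the length used. With all annotated exons the log2 ratios were 1.80 to Slc7a7 and 0.89 to Slc7a5, and with the coding length 1.38 and 1.13. By both of these lengths Slc7a5 was on average the higher light chain.

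The carrier of cationic amino acids that works without Slc3a2, Slc7a1, lies at chr5:148264220-148336714 on the reverse strand. Mice 1 to 3 had 753, 959 and 1019 normalized counts of it, with a mean of 910.3 ± 139.5 (SD, n = 3). Its transcript is the longest of the 8, at 7313 bases, so that its level per kilobase was only 124 ± 19.1. Mouse 1 was the lowest, and mice 2 and 3 were close to each other. Slc7a7 and Slc7a1, which both carry cationic amino acids, could not be ordered: the log2 ratio per kilobase was 0.15 ± 0.25 in favour of Slc7a7 and did not have the same sign in all 3 mice (exact sign-flip permutation test, two-sided, p = 0.5). With the length of all annotated exons in place of the canonical transcript the ratio was −0.71 in the other direction.

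Of the Slc38 members with a row, Slc38a2 was the higher. It lies at chr15:96585273-96597611 on the reverse strand and had 1095, 1279 and 1370 normalized counts in mice 1 to 3, a mean of 1248 ± 140.1 (SD, n = 3), and 266 ± 29.9 per kilobase. Slc38a3, at chr9:107527833-107546729 on the reverse strand, had 157, 231 and 214 normalized counts, a mean of 200.7 ± 38.8, and 56.3 ± 10.9 per kilobase. Both were lowest in mouse 1. Slc38a3 was the lowest of the 8 transporters and lay just above the minimum mean of 200. Slc38a2 exceeded it per kilobase by 2.26 ± 0.17 on the log2 scale, or 4.78-fold, in the same direction in all 3 mice. Slc38a5, the gene of the group without a row, is annotated at chrX:8123870-8146425 on the forward strand.

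The glutamine carrier Slc1a5 lies at chr7:16515265-16532199 on the forward strand. Its normalized counts of 285, 437 and 407 in mice 1 to 3 gave a mean of 376.3 ± 80.5 (SD, n = 3) and 136 ± 29.1 per kilobase. As for Slc7a5, mouse 1 was the lowest and the others were close. Slc1a5 exceeded Slc7a5 per kilobase by 0.48 ± 0.29 on the log2 scale in the canonical length, with the same order in all 3 mice, and the sign turned to −0.37 with the length of all annotated exons.

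**Figure D1:**
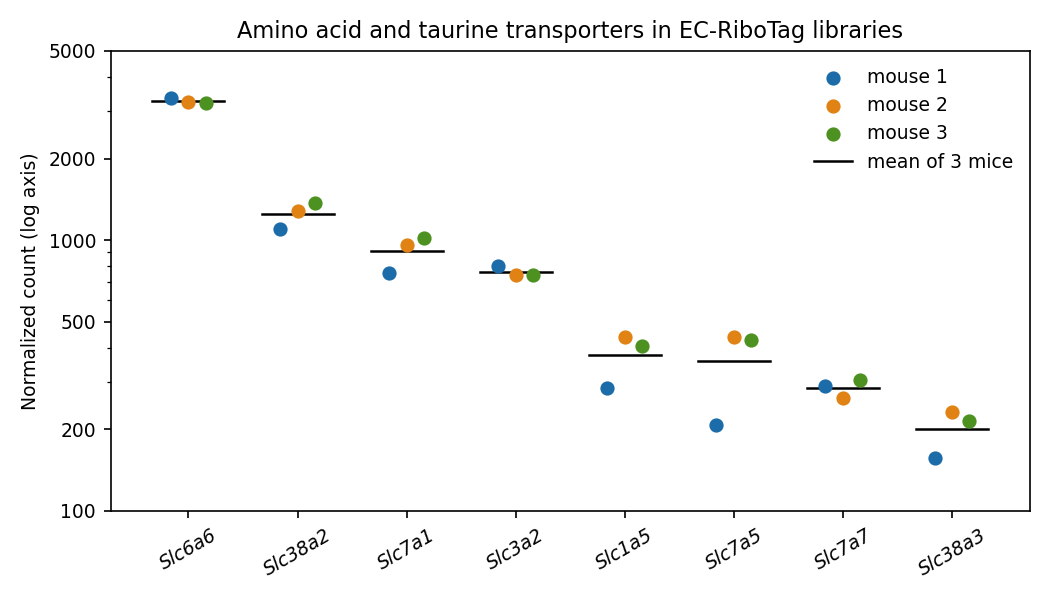
Normalized counts of the 8 transporters with a row, on a log axis, with 1 point per mouse and a horizontal bar at the mean of 3 mice. Slc6a6 sits at 3213 to 3334 in all mice, whereas Slc7a5 has 1 point at 207 and the others at 437 and 428.

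The order of levels per kilobase was Slc6a6, Slc3a2, Slc38a2, Slc7a7, Slc1a5, Slc7a1, Slc7a5 and Slc38a3, from 527 down to 56.3 normalized counts per kilobase, a 9.36-fold range. Removal of duplicate reads can narrow this range at its upper end. Of the 28 pairs of transporters, 25 had the same order in all 3 mice. For each of these 25 the exact two-sided sign-flip permutation test of the within-mouse log2 ratio gave p = 0.25, the smallest that 3 mice allow, and 0.28 after Benjamini-Hochberg adjustment over the 28 pairs. No pair can therefore pass a threshold of 0.05 in this design, and the order is given as a description.

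Of the 7 pairs of neighbours in that order, 5 kept their order in all 3 mice, and the means of 4 were farther apart than the larger of both SDs. Slc6a6 exceeded Slc3a2 by 0.82 ± 0.04 on the log2 scale per kilobase, the tightest of these steps. Slc3a2 exceeded Slc38a2 by 0.17 ± 0.23 (exact sign-flip permutation p = 0.5, adjusted p = 0.519), and although their means were farther apart than either SD, Slc38a2 was the higher in mouse 3. Slc38a2 exceeded Slc7a7 by 0.95 ± 0.19, and below it Slc7a7, Slc1a5 and Slc7a1 lay close together, between 124 and 138 normalized counts per kilobase. The step from Slc7a7 to Slc1a5 was 0.04 ± 0.38 (exact sign-flip permutation p = 1) and the step from Slc1a5 to Slc7a1 was 0.12 ± 0.14. Slc7a1 exceeded Slc7a5 by 0.36 ± 0.39, again less than the larger SD of the pair, and Slc7a5 exceeded Slc38a3 by 0.79 ± 0.33. The order inside this middle group also depended on which length was used.

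The 8 genes stood alike among solute carriers and among all genes. Of the 8, 7 were above the median of all 262 solute carrier symbols, 65.6 normalized counts per kilobase, and the same 7, all but Slc38a3, were above that of all genes with a length, 73.0. Slc6a6, Slc3a2 and Slc38a2 were among the highest 10% of solute carriers. These 3 were also the members above the median of the 145 solute carriers averaging 200 or more, 140.1 per kilobase, and above that of the 9358 genes averaging 200 or more, 176.

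**Figure D2:**
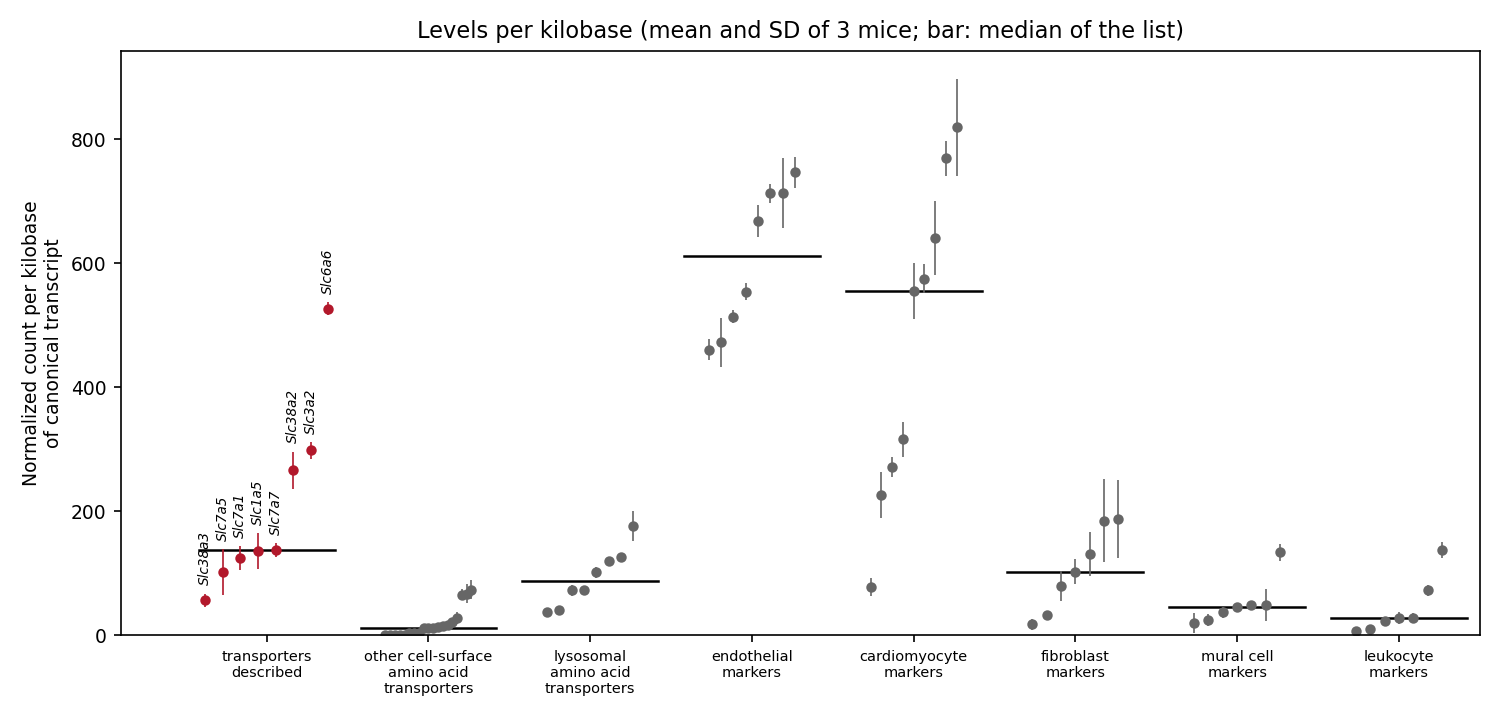
Normalized counts per kilobase of canonical transcript, mean and SD of 3 mice per gene, for the 8 transporters and for lists of other transporters and cell type markers, with a horizontal bar at the median of each list. The other cell-surface amino acid transporters have a median of 12.4, and Slc6a6 at 527 lies among the endothelial and cardiomyocyte markers. Removal of duplicate reads can compress the values of these abundant genes.

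The remaining amino acid transporters of the cell surface were mostly scarce. Of 32 such genes, 19 had a row, 3 had a mean of at least 200, and the median of the 19 was 12.4 normalized counts per kilobase. The 3 highest were Slc7a6, another light chain of Slc3a2, with 222, 339 and 270 normalized counts in mice 1 to 3, the glutamate transporter Slc1a1, with 320, 208 and 241, and the neutral amino acid transporter Slc43a2, with 238, 226 and 183. Per kilobase all 3 lay above Slc38a3 and below the other 7 transporters, at 73.8 ± 15.7, 67.5 ± 15.1 and 65.6 ± 8.79 (SD, n = 3) respectively. Of the other carriers that the naming rule lists, the glycine transporter Slc6a9 was the next, with 59, 111 and 122 normalized counts, followed by Slc38a1, a close relative of Slc38a2, with 68, 88 and 123, and the cationic carrier Slc7a2, with 68, 71 and 126. Of the 19 genes with a row, 10 were lowest in mouse 1. The share was 31.8% for all genes with a mean of at least 200, which only 3 of the 19 reached. Few reads were assigned to Slc7a8, another light chain of Slc3a2 also called LAT2 (11, 15 and 18), to the glutamate transporter Slc1a3 (8, 19 and 16) and to the cystine-glutamate exchanger Slc7a11 (7, 8 and 5).

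Carriers of the lysosomal membrane were more evenly represented. Of 9 genes, 8 had a row and 7 a mean of at least 200, and the median was 87.5 normalized counts per kilobase. The 3 highest per kilobase were Slc15a3, a transporter of histidine and small peptides, at 176 ± 24.7, the cystine exporter Ctns, at 126 ± 4.41, and Slc36a4, at 120 ± 6.10 (SD, n = 3). None of the 7 had a coefficient of variation over 20%, against 8.00% of all genes with a mean of at least 200.

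Genes that make taurine were detected beside its carrier. Of 8 genes of taurine synthesis and of other taurine carriers, 5 had a row and 3 a mean of at least 200. Fmo1, an oxidase that converts hypotaurine to taurine, had 1438, 1266 and 1305 normalized counts, Ado, the dioxygenase of cysteamine, 714, 783 and 720, and Csad, which decarboxylates cysteine sulfinic acid, 324, 242 and 298. Per kilobase these were 330 ± 22.2, 162 ± 8.39 and 117 ± 17.0 (SD, n = 3), each below the 527 of Slc6a6. Cdo1, outside the naming rule, which opens the path by oxidising cysteine, had only 55, 54 and 106 normalized counts. Of the other genes of organic osmolytes, Nfat5, a transcription factor that responds to tonicity, had 1257, 1368 and 1526 normalized counts, the aldose reductase gene Akr1b3 had 292, 311 and 293, and the inositol carrier Slc5a3 had 244, 378 and 274. All 3 were lowest in mouse 1, though Akr1b3 by only 1 normalized count, whereas Slc6a6 was highest there. Of all genes with a mean of at least 200, 31.8% were lowest in mouse 1.

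The genes whose values over the 3 mice were most like those of Slc6a6 were sought among the 9357 others with a mean of at least 200, by the largest difference in log2(value / own mean) over the mice. The 3 nearest were Zmym3 at 0.00027, Lgr4 at 0.0016 and Map4k2 at 0.0021. With 3 values per gene such nearness is common: 1182 genes (12.6%) were within 0.05.

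The transporters differed in how well the mice matched. Across these 9358 genes, 8.00% had a coefficient of variation over 20%, as did 16 of the 145 solute carriers among them. Of the 8 transporters, 2 were past this threshold: Slc7a5 at 36.5% and Slc1a5 at 21.4%. Slc38a3 at 19.3% and Slc7a1 at 15.3% were below it, followed by Slc38a2 at 11.2%, Slc7a7 at 7.64%, Slc3a2 at 4.55% and Slc6a6 at 2.00%. Counting error alone would give a coefficient of 5.30% for Slc7a5 and 5.16% for Slc1a5 at their depths, and the median coefficient of the 9358 genes was 7.37%. Among genes with a mean within 1.2-fold of its own, 2.71% had a coefficient at least as large as Slc7a5, 8.11% as Slc7a1, 9.69% as Slc1a5, 15.8% as Slc38a2, 23.9% as Slc38a3, 61.4% as Slc7a7, 73.1% as Slc3a2 and 89.8% as Slc6a6. Removal of duplicate reads can also lower the spread of an abundant gene such as Slc6a6, which was not tested.

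**Figure D3:**
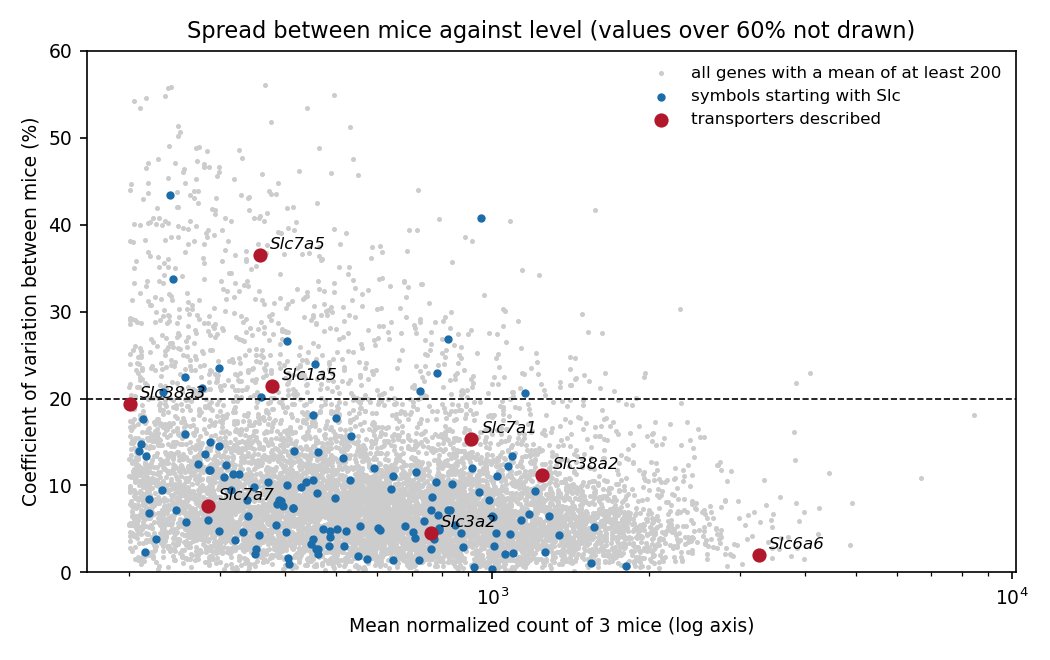
Coefficient of variation over 3 mice, in percent, against mean normalized count on a log axis, for genes averaging 200 or more (grey), solute carrier symbols (blue) and the 8 transporters (red, named), with a dashed line at 20%; 6 genes over 60% are not drawn. Slc7a5 at 36.5% and Slc1a5 at 21.4% lie above the line, Slc38a3 at 19.3% just under it, and Slc6a6 at 2.00% near the lower edge.

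The spread came from mouse 1 in each of the more variable transporters. Slc7a5, Slc1a5, Slc38a3, Slc7a1 and Slc38a2, 5 of the 8, were lowest in mouse 1, where 31.8% of all genes with a mean of at least 200 were lowest, and 2 of the 8, Slc6a6 and Slc3a2, were highest there, against 37.6%. The value of mouse 1 was lower than the mean of mice 2 and 3 by 52.1% for Slc7a5, 32.5% for Slc1a5, 29.4% for Slc38a3, 23.9% for Slc7a1 and 17.3% for Slc38a2. Both transporters past the threshold were among these 5, and 5.20% of genes had a coefficient over 20% together with their lowest value in mouse 1. Without mouse 1 the coefficient of Slc7a5 was 1.47% and none of the 8 was past 20%, where the share of all genes was 4.84%. The number of variable transporters thus rested on mouse 1.

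Marker levels also differed between mice. Of all genes with a mean of at least 200, 31.8% were lowest in mouse 1. Only 1 of the 7 leukocyte markers with a row and 0 of the 5 erythroid markers reached that mean. No such share was taken for genes below it. Summed normalized counts of leukocyte markers were 588, 836 and 823 in mice 1 to 3, and 6 of the 7 markers with a row were lowest in mouse 1, with Ptprc at 94, 190 and 154. Fibroblast markers summed to 2659, 3172 and 3531, with 5 of 7 lowest in mouse 1, and mural cell markers to 1507, 1796 and 1936, with 4 of 7 lowest there. Of these, 6 fibroblast and 4 mural cell markers reached a mean of 200. Among those that did, 4 fibroblast and 2 mural cell markers were lowest in mouse 1. Cardiomyocyte markers summed to 20009, 20734 and 23671, with 4 of 9 lowest in mouse 1, and erythroid markers to 331, 334 and 369, with 2 of 5. Endothelial markers were in the other order, at 22479, 21211 and 21490, with 1 of 8 lowest in mouse 1. No marker with a row was at 0 in any mouse, although Cd3e had no row. Sex, as read from Xist and Ddx3y, differed between mouse 1 and the others and cannot be told apart from its other differences. The part of these differences, and of sex, in the lower transporter values of mouse 1 was not tested.

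Genes of the amino acid response, which cells raise when amino acids run short through the kinase Eif2ak4 and the factor Atf4, were mostly detected. All 14 had a row, 12 had a mean of at least 200, and 7 of these 12 were lowest in mouse 1, against 31.8% of all such genes. The 3 highest per kilobase hardly differed between mice: Ddit4, an inhibitor of mTORC1 signalling, with 970, 1086 and 958 normalized counts, Atf4 with 942, 954 and 910, and the related factor Atf5 with 835, 865 and 757. A coefficient over 20% was found for 3 of the 12, against 8.00% of all genes with a mean of at least 200. All 3 were lowest in mouse 1, and 5.20% of all such genes had both traits. These 3 were named for that after their values were seen. Psat1, an enzyme of serine synthesis, had 350, 643 and 480, the leucine sensor Sesn2 173, 297 and 323, and Eif2ak4 itself 279, 410 and 481. The asparagine synthetase gene Asns, also outside the naming rule, had 312, 377 and 317.

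**Figure D4:**
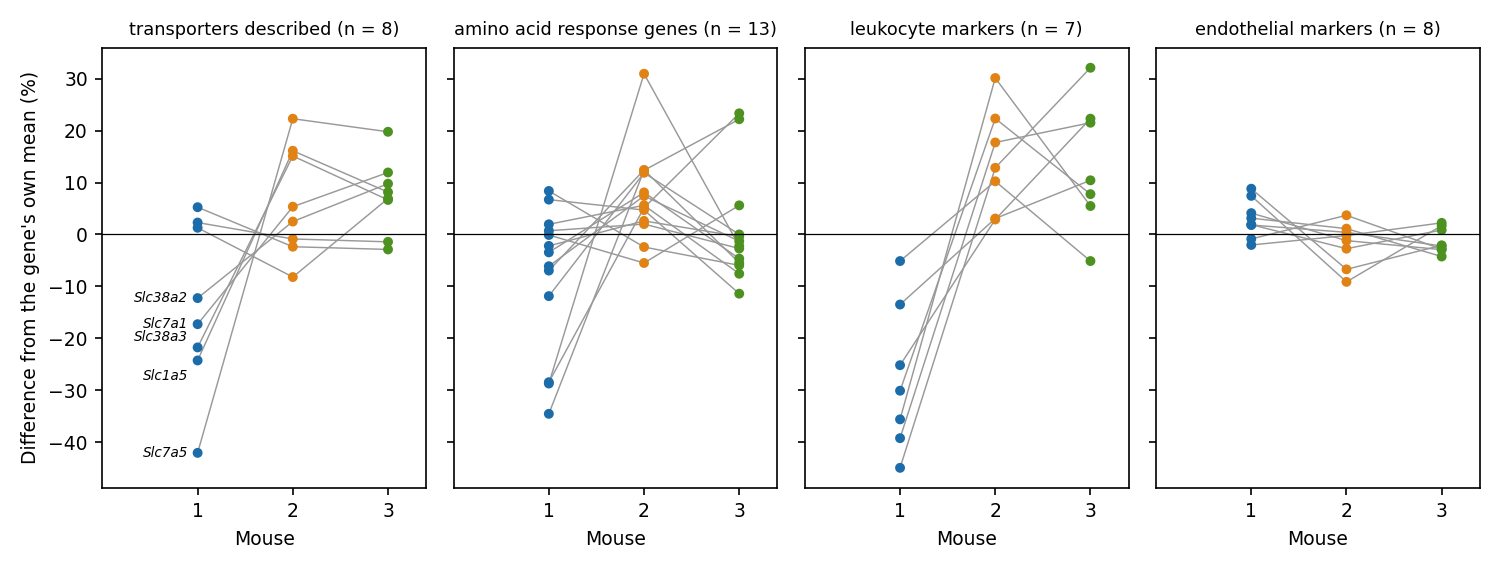
Difference of each gene's normalized count from its own mean, in percent of that mean, in mice 1, 2 and 3, with 1 line per gene joining its values. Drawn are the 8 transporters, 13 amino acid response genes, 7 leukocyte markers and 8 endothelial markers with a mean of at least 20. Slc7a5 is the transporter farthest below 0 in mouse 1, and 6 of the 7 leukocyte markers are lowest there.

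Slc38a2 and Slc7a1 kept a nearly fixed log2 ratio per kilobase over the mice, 1.10 ± 0.07 (SD, n = 3). The SD was smaller still for Slc6a6 to Slc3a2 and for Slc1a5 to Slc38a3, 0.04 each, but neither of those pairs had a promoter entry for both genes. Slc38a2 and Slc7a1 each had an entry, and the stretches before their starts are therefore shown. RefSeq promoter windows, tabulated for GRCm38.p6, covered 5 of the 9 genes with 10 windows, and their 250 bases before the start were placed on GRCm39 by exact match. Part of a window can lie inside the canonical transcript of the newer annotation, and the sequences are given up to that transcript, 5′ to 3′ on the gene's strand, with a GC box in capitals (letters GGGCGG on either strand). The last 18 bases of the Slc38a2 window and the last 134 of the Slc7a1 window are left out for this reason, and with them the GC box of Slc7a1, which is shown apart within 30 bases. They come from chr15:96597628-96597859, reverse strand, for Slc38a2 and chr5:148336849-148336964, reverse strand, for Slc7a1.
Slc38a2: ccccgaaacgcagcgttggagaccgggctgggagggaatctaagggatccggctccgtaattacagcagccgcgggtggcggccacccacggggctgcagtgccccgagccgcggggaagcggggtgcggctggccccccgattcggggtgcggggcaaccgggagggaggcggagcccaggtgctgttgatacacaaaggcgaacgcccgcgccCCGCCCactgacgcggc
Slc7a1: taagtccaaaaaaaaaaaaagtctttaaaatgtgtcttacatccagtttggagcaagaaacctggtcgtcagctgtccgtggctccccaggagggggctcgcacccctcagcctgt
Slc7a1, GC box: cggtctcgggtgtccCCGCCCacaggggcg

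Both windows held a GC box on the reverse strand, starting 35 bases before the RefSeq start of Slc38a2 and 36 before that of Slc7a1. By the canonical transcripts the positions differ, since the box of Slc38a2 lies before the transcript and that of Slc7a1 inside it. Of all 32851 promoter windows in the RefSeq table, 32.7% held a GC box, a common feature. The window of Slc38a2 also held the TATA box core TATAA, 8 bases before the RefSeq start. This core lies among the last 18 bases, inside the canonical transcript, which are left out above. Of all windows, 22.8% held it. The window of Slc7a1 shown here did not, whereas a further window of Slc7a1 held it 28 bases before its start. The GC content was 72.0% in the window of Slc38a2 and 62.4% in that of Slc7a1, against a median of 52.4%.

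The composite element TGATGNAA, which factors of the C/EBP and ATF families bind in genes of the amino acid response, was searched on both strands of the same windows. It was found in 2 of the 5 windows of Slc7a7 and in none of those of Slc7a1, Slc38a2, Slc3a2 and Slc38a5. The Slc7a7 window whose start was matched to the canonical transcript, at chr14:54647660, held none. In all windows the share was 3.45%. The Slc7a7 matches, in capitals within 30 bases of sequence, began 141 and 243 bases before their starts, chr14:54655401 and chr14:54655159 respectively.
Slc7a7, 141 bases before: ccgcttgggctTGATGAAAggttcactggg
Slc7a7, 243 bases before: tagaagcTGATGCAAcagcttccccgaggg

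A match is a description of letters and not of a bound site.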

How the data were processed

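Single-end reads of 72 bases came from RNA on HA-tagged ribosomes of 3 EC-RiboTag hearts. Per the labels, the authors used Trimmomatic 0.39, STAR 2.7.11a on mm39, Picard 3.1.1, featureCounts 2.0.4 and DESeq2 1.36.0. The deposited unit is treated as a score: the authors scaled the counts of each library by its size factor, and the values are whole numbers. These are not raw counts, so no count model was fitted. Because duplicates of single-end reads were removed, the values of abundant genes can be compressed.

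Members and gene lists were chosen with earlier results of these data known. Lengths were those of the GENCODE vM39 canonical transcript, which is newer than the annotation of the authors. Pairs of members were compared by within-mouse log2 ratios per kilobase with an exact sign-flip permutation test (smallest p 0.25). The labels call the libraries biological replicates. Depth was estimated from the spacing of whole numbers in each column. Named genes are the members, the 3 highest per kilobase of each list, 8 other surface carriers, the cell type markers and the 3 genes most like Slc6a6; some genes that this rule would name are not reported here. Python 3.11.15, pandas 2.3.3 and BLAST 2.17.0 were used, and scripts were tested on simulated data. Alternatives were other scalings, lengths, thresholds and leaving out each mouse.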

Additional observations from a re-analysis of the deposited data

How the results depend on the processing

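Rescaling the libraries by trimmed means or by totals moved each of the 8 levels by less than 1 SD; the median, or leaving out 1 of 3 mice, cannot move a mean by more than that and says nothing of stability. Of 272 recomputed values the ones that changed did so with the length, the threshold on spread or the mice used. With the length of all annotated exons, the median rank of the 8 transporters per kilobase went from 6064 to 5196, and 1 instead of 3 was among the highest 10% of solute carriers. That length also moved Slc6a6 from rank 460 to 687 among all genes and from 3 to 7 among solute carriers. By the canonical length but without mouse 3, its rank among solute carriers was 5. The number of variable transporters was 2 with a coefficient of variation over 20% and 4 with over 15%, where the share of all genes was 14.9%, and it ranged from 0 to 3 when each mouse was left out, with 0 without mouse 1. Ratios were recomputed only for neighbours and for pairs of shared function. Among these, log2 ratios per kilobase that changed sign with the length of all annotated exons were Slc7a7 to Slc1a5 (−0.55), Slc7a7 to Slc7a1 (−0.71), Slc1a5 to Slc7a1 (−0.17), Slc1a5 to Slc7a5 (−0.37) and Slc7a1 to Slc7a5 (−0.20). With the coding length these were Slc3a2 to Slc38a2 (−0.77), Slc7a7 to Slc1a5 (−0.26), Slc7a7 to Slc7a1 (−1.38) and Slc1a5 to Slc7a1 (−1.12). Other pairs can turn too: Slc7a7 was above Slc7a5 by the canonical length, at 138 against 102 normalized counts per kilobase, and below it by all exons, at 46.8 against 93.0. When each mouse was left out, Slc7a7 to Slc1a5 ranged from −0.16 to 0.22. The order of Slc7a7, Slc1a5, Slc7a1 and Slc7a5 is thus not fixed by these data. No paired analysis was possible because all libraries belong to 1 group. With 3 mice no ratio can reach p below 0.25, and with 161 reads in its lowest mouse Slc38a3 is the transporter with the least depth.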

Other observations

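Genes that sense or use the transported amino acids were mostly well represented in the table. Of 23 genes of amino acid sensing by mTORC1, the kinase complex that couples amino acids to growth, all had a row and 22 had a mean of at least 200, and the highest per kilobase were the lysosomal scaffold genes Lamtor1, at 492 ± 39.2 normalized counts per kilobase, and Lamtor2, at 483 ± 48.7, and the GTPase gene Rheb, at 412 ± 13.5 (SD, n = 3). Sesn2 was the gene of this list with a coefficient of variation over 20%, where the share of all genes with a mean of at least 200 was 8.00%. Of 7 genes of arginine metabolism, 6 had a row and 4 a mean of at least 200: Ddah2 and Ddah1, which break down methylated arginine, had 635 ± 53.2 and 148 ± 20.7 normalized counts per kilobase, and the endothelial nitric oxide synthase gene Nos3 had 410.4 ± 23.8, above the 124 of the arginine carrier Slc7a1.

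Of 7 genes of glutamine and glutamate metabolism, all had a row and 6 a mean of at least 200. The glutamine synthetase gene Glul had 1327, 1272 and 1125 normalized counts in mice 1 to 3 and the glutamate dehydrogenase gene Glud1 1195, 1228 and 1192. In this list 1 gene had a coefficient over 20%, against 8.00% of all genes with a mean of at least 200. It was Aldh18a1, an enzyme of proline synthesis, named after its values were seen, with 166, 279 and 303. Of 6 sodium pump subunits, which maintain the sodium gradient that several of the carriers use, all had a row and 5 a mean of at least 200. None of these 5 was lowest in mouse 1, where 31.8% of all genes with a mean of at least 200 were lowest. Atp1b3 had 985, 977 and 968 normalized counts and Atp1b2 560, 447 and 422.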
